A study of Mus musculus with 4 samples.

Results

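Ribosomal protein pseudogenes were taken as every row of the deposited gene table whose mouse symbol is that of a ribosomal protein gene followed by -ps and an optional number, as in Rps26-ps1. This gave 297 of 53715 genes. The parent gene of each is the gene named by the symbol without its suffix, as in Rps26. There were 62 parent symbols, of which 61 are in the table, and 296 of the 297 pseudogenes have a parent there. The set was chosen by symbol, with the counts and CPM of these same 4 libraries in view. The comparison of the 2 groups is therefore a description, and no conclusion is drawn from the test results given with it.

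A processed pseudogene arises when a messenger RNA is copied into DNA by reverse transcription and inserted elsewhere in the genome, without introns and usually without its own promoter. Ribosomal protein genes have left more such copies in mammalian genomes than most other gene families, since their messages are short and abundant in the germ line, where an insertion can be inherited. Young copies are nearly identical to the parent message, so short reads from one can be placed on the other.

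The libraries were RNA-seq of cells labelled as primordial germ cells, the embryonic precursors of eggs and sperm, from C57BL/6 mouse embryos at stage E12.5. The compared groups were Rif1_KO, labelled as a knockout of Rif1 (a chromatin protein that acts in replication timing and DNA break repair), with 2 libraries, and WT, labelled wild type, with 2 libraries. No other allele or agent is named. The labels do not say whether the knockout is constitutive, nor whether 2 libraries of one group came from different embryos, so the spread between them may be technical. Each library was made by a modified Smart-seq2 protocol with Tn5 transposase from 1000 cells purified with magnetic beads.

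Total counts per library lay between 11724630 and 14421298. Levels are given as CPM (counts per 1000000 after TMM scaling of the libraries), and 1 CPM corresponded to 13.3 and 18.9 counts in the libraries labelled Rif1_KO, against 10.9 and 9.30 in those labelled WT, so raw counts run higher in the libraries labelled Rif1_KO at an equal level. Rif1 itself stood at 86.2 and 63.9 CPM in the libraries labelled Rif1_KO, against 43.7 and 4.73 CPM in those labelled WT. It was thus higher in both libraries labelled as its knockout, with a wide spread in WT. The log2 fold change was 1.63 (SE 1.01, adjusted p 0.717 by edgeR's quasi-likelihood test). These counts cover the whole gene and do not settle the genotype, so the labels could not be checked by them. Each direction below is therefore one between libraries as labelled. The 8 germ cell markers summed to 28.7 and 32.1 CPM in the libraries labelled Rif1_KO, against 46.8 and 449 CPM in those labelled WT, with no marker at 0. Of these, 4 were lower and 1 was higher in both libraries labelled Rif1_KO, and the rest overlapped. The 8 erythroid markers summed to 9776 and 4263 CPM against 137213 and 111871 CPM, and all 8 were lower in both libraries labelled Rif1_KO than in either labelled WT, with none at 0. The 6 stromal markers summed to 1090 and 986 CPM against 305 and 230 CPM, and all 6 were higher, with 1 at 0 in WT replicate 2. Among 5 supporting cell markers 1 was higher and 1 lower, among 4 endothelial markers 1 and 1, and among 4 leukocyte markers 0 and 1. The part that cell makeup plays in any difference given here was not tested, and in such bulk libraries fewer cells of a type and less RNA per cell cannot be told apart.

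The pseudogenes on which the description turns differ from their parents at few bases. Stretches of 90 coding bases are shown for 5 pairs, from the GENCODE M21 transcripts of the GRCm38 build. Each is the stretch aligned without a gap that holds the most differences, or the first of several that tie. Bases are in lower case, with those that differ within the pair in capitals. Positions in the text are counted from the A of the parent's start codon, and a change is written as the parent's base, its position and the pseudogene's base. Rps26-ps1 and Rpsa-ps10 are shown because their counts differed most between the groups among the highest members. Rps2-ps13 and Rpl3-ps1 are shown because they were among the 3 highest, and Rps16-ps2 because it is an exact copy.

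The Rps26-ps1 stretch lies at chr8:107439473-107439562 on the minus strand. The Rps26 stretch spans chr10:128626154-128626478 on the minus strand, with 1 exon junction inside it. They differ here by C30T.
Rps26-ps1: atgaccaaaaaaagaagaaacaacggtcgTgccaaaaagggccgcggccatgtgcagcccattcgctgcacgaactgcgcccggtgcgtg
Rps26: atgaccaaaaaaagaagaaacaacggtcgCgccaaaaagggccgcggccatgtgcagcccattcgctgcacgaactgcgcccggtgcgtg

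The Rpsa-ps10 stretch lies at chr3:150073324-150073413 on the minus strand. The Rpsa stretch spans chr9:120128619-120129243 on the plus strand, across 1 exon junction, and covers coding bases 130 to 219. They differ here by T210C and C219T.
Rpsa-ps10: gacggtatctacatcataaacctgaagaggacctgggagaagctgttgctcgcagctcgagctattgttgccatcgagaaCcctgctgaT
Rpsa: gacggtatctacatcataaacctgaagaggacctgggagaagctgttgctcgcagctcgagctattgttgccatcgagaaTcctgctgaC

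The Rps2-ps13 stretch lies at chrX:52898588-52898677 on the plus strand, and the Rps2 stretch at chr17:24720276-24720365 on the plus strand. They differ here by T60A and A84G.
Rps2-ps13: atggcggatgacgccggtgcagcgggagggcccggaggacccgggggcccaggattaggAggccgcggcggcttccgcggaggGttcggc
Rps2: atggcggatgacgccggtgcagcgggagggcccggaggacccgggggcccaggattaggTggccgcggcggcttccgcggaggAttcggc

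The Rpl3-ps1 stretch lies at chrX:13202572-13202661 on the plus strand. The Rpl3 stretch spans chr15:80082496-80083326 on the minus strand, across 1 exon junction. They differ here by C57A.
Rpl3-ps1: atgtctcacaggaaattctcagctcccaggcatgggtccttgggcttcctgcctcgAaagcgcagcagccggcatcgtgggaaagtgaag
Rpl3: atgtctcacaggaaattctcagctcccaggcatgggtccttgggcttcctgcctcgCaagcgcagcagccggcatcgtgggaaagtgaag

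The Rps16-ps2 stretch lies at chr5:129128428-129128517 on the minus strand. The Rps16 stretch spans chr7:28350804-28351033 on the plus strand, across 1 exon junction. No base differs, here or over the 441 bases of the pseudogene.
Rps16-ps2: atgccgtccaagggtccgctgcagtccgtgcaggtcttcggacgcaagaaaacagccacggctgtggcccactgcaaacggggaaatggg
Rps16: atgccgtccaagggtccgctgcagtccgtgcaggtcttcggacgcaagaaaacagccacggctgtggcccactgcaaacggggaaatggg

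Most of the 297 loci are short copies without introns. Their exon lengths had a median of 460 bases, with quartiles of 390 and 591, and 290 are a single block of exon sequence. The GENCODE M21 annotation, which has 288 of them at the same coordinates as the table, calls 284 processed pseudogenes, 7 transcribed processed pseudogenes and 6 protein coding. By position, 207 lie between genes, 79 inside an intron and 10 overlap an exon of another gene, and 1 overlaps another gene's span in part. Chromosome X carries 35 of them, and chromosome 7, the next, carries 22. The 7 called transcribed include Rps2-ps10, a copy of a small-subunit gene. The 6 called protein coding include Rpl9-ps6, a copy of a large-subunit gene, and Rps12-ps3, a copy of a small-subunit gene.

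Identity to the parent ran high. Over the 291 pseudogenes that aligned to a parent transcript across at least 50 columns, identity had a median of 96.0%, with quartiles of 91.0% and 98.7% and a range of 68.1% to 100%. Of these, 14 were identical to the parent over the whole alignment. The other 6 had no parent transcript to align to or a match under 50 columns, and Rpl13-ps1 is among them. The parent's reading frame was open from start to stop codon in 108 pseudogenes, interrupted in 57, and not covered to both ends in 126.

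The symbol does not always name the coding gene that shares most sequence. Each transcript was cut into windows of 50 bases, which were looked up in all other GENCODE M21 transcripts. The protein-coding gene sharing most windows was the symbol's parent for 223 pseudogenes, with ties counted for the parent. Most Rps12 pseudogenes were tied between Rps12 and another protein-coding gene. For 66 no gene annotated as protein coding shared a window. For 8 another gene shared most, with between 2 and 309 windows shared. Among the 66, Rps4l-ps shared 133 of 719 windows with its parent Rps4l, which is annotated as a pseudogene. An example chosen after its values were seen is Rpl36a-ps3, which shared 222 of 272 windows with Rpl36al and 0 with Rpl36a.

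Counts were concentrated on few of the loci. At least 1 count was found for 188 and 167 pseudogenes in the libraries labelled Rif1_KO, against 169 and 179 in those labelled WT. At least 10 counts were found for 95 and 93, against 79 and 85. In all 4 libraries 117 had at least 1 count and 70 had at least 10, while 45 were at 0 in each library. A locus at 0 can still carry RNA, since a count of 0 has a 95% upper limit of about 3 counts, which is 0.226 and 0.159 CPM in the libraries labelled Rif1_KO, against 0.276 and 0.322 CPM in those labelled WT.

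After TMM scaling, the summed level of the pseudogenes differed by less than the spread within a group. It came to 2424 and 1729 CPM for the 2 libraries labelled Rif1_KO, against 2167 and 1938 CPM in those labelled WT, so the groups overlapped. The mean sum was 2076 ± 492 CPM for Rif1_KO and 2052 ± 162 CPM for WT (SD, n = 2 each), a ratio of 1.01. The 61 parents summed to 33235 and 24995 CPM against 30332 and 28729 CPM, and these groups overlapped as well. As a share of the total as deposited, the pseudogenes held 0.266% and 0.226% in the libraries labelled Rif1_KO, against 0.184% and 0.154% in those labelled WT. The parents held 3.65% and 3.27% against 2.58% and 2.28%. On that scale neither set overlapped between the groups, so the overlap depends on the scaling. An exact two-sided permutation test of 2 against 2 libraries cannot give a p below 0.33, and none was run.

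Of the counts given to pseudogenes and parents together, the pseudogenes held 6.80% and 6.47% in the libraries labelled Rif1_KO, against 6.67% and 6.32% in those labelled WT. The exact Clopper-Pearson 95% intervals of these shares ran from 6.73% to 6.87% and from 6.40% to 6.54% in the libraries labelled Rif1_KO. They ran from 6.59% to 6.75% and from 6.23% to 6.41% in those labelled WT. These intervals cover counting error only, and the 4 shares interleave by group. Without Rps26-ps1 and Rpsa-ps10, a split chosen after the values were seen, and with all 61 parents kept, the shares were 5.87% and 5.72% against 6.33% and 5.90%, lower in both libraries labelled Rif1_KO. Exon lengths of parents cover all their annotated transcripts, which can raise the pseudogenes' share per kilobase. On that scale the share with all pseudogenes was 16.7% and 15.2% against 14.0% and 13.4%, higher in both libraries labelled Rif1_KO. Without those 2 loci it was 14.1% and 13.0% against 13.5% and 12.7%, which interleave, so the direction of the share depends on these 2 loci and on the scale.

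The 4 highest pseudogenes held 49.9% and 55.2% of all pseudogene counts in the libraries labelled Rif1_KO, against 53.2% and 48.9% in those labelled WT. The 12 highest held 67.3% and 72.3% against 74.3% and 70.9%. The median locus had 2 and 1 counts against 1 and 1, so most loci lay at or near the limit of detection.

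**Figure D1:**
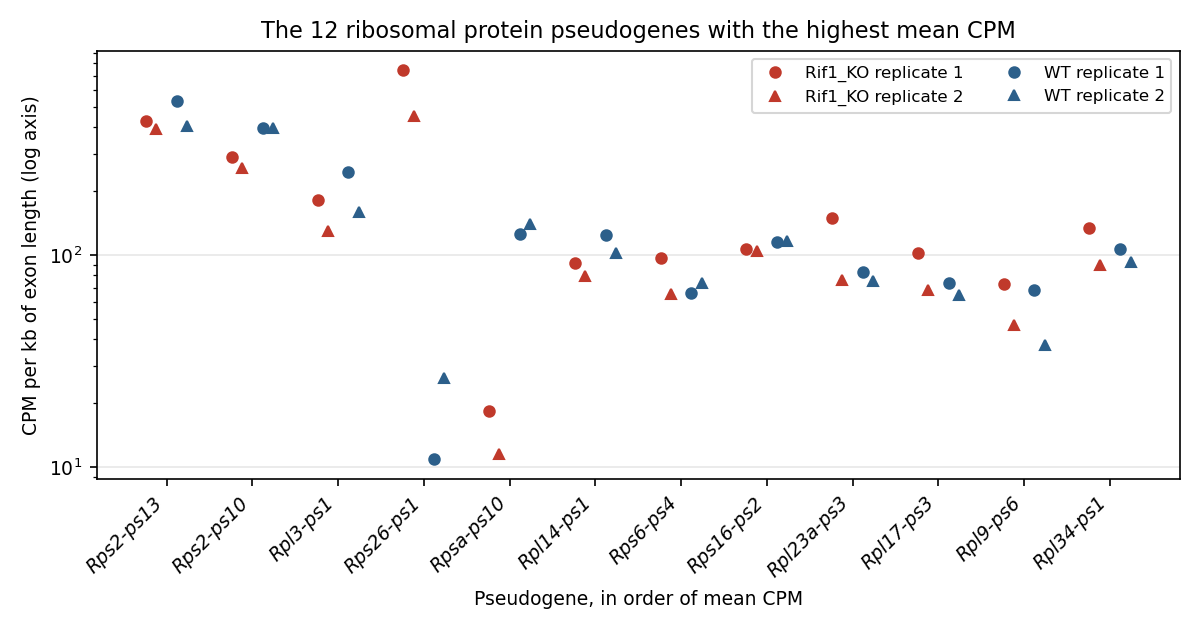
Level of the 12 pseudogenes with the highest mean CPM, in CPM per kilobase of exon length on a log axis, with 1 point for each of the 2 libraries labelled Rif1_KO and the 2 labelled WT. Rps26-ps1 stands at 743 and 452 CPM per kb in the libraries labelled Rif1_KO against 10.9 and 26.3 in those labelled WT, and Rpsa-ps10 at 18.4 and 11.5 against 126 and 139, while the other 10 lie close together.

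The small-subunit gene Rps2 has the pseudogenes with the highest counts. Rps2-ps13, a single exon of 882 bases between genes at chrX:52898588-52899469, had 5015 and 6560 counts in the libraries labelled Rif1_KO, against 5074 and 3339 in those labelled WT. That was 378 and 347 CPM against 467 and 359 CPM, and the groups overlapped. The fitted log2 fold change was -0.19 (SE 0.30).

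Rps2-ps10 lies on chromosome 18 inside an intron of Pde6a, on the opposite strand, and had 3716 and 4672 counts against 4146 and 3574. It reached 280 and 247 CPM in the libraries labelled Rif1_KO, against 382 and 384 CPM in those labelled WT. It was lower in both libraries labelled Rif1_KO, with a log2 fold change of -0.54 (SE 0.29). Pde6a had 8 and 14 counts against 12 and 3, far below the pseudogene within it.

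Both exceeded their parent in every library, which no other pseudogene did. Rps2 had 1194 and 1603 counts in the libraries labelled Rif1_KO, against 1153 and 1113 in those labelled WT. Rps2-ps13 stood at 420% and 409% of its parent's count against 440% and 300%, and Rps2-ps10 at 311% and 291% against 360% and 321%. Per kilobase of exon, Rps2-ps13 stood at 428 and 394 CPM against 530 and 407 CPM, and Rps2 at 49.2 and 46.4 CPM against 58.0 and 65.4 CPM. The exon length of Rps2, 1830 bases, covers all its annotated transcripts. This lowers its level per kilobase beside a copy of a single exon.

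The 10 Rps2 pseudogenes together held 88.0% and 87.6% of the counts of the family and its parent in the libraries labelled Rif1_KO, against 88.9% and 86.2% in those labelled WT. Rps2-ps13 shares 733 of its 833 windows with Rps2-ps10 and 550 with Rps2. The 7 coding differences of Rps2-ps13 (T60A, A84G, T204C, G300A, C444T, C453A and T756C) all lie at the third base of a codon, and its frame is open. Rps2-ps10 carries 5 of the same changes, T60A, T204C, C444T, C453A and T756C. Because these copies are near-identical, the level of any single Rps2 locus is uncertain. How reads were placed or dropped among them was not tested.

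Rpl3-ps1, a copy of a large-subunit gene between genes at chrX:13202571-13203780, was next. It had 2908 and 2969 counts in the libraries labelled Rif1_KO, against 3231 and 1790 in those labelled WT, or 219 and 157 CPM against 298 and 192 CPM. That was 31.8% and 25.8% of Rpl3 against 44.9% and 38.6%. The levels overlapped between the groups, and the percentages of the parent did not. Its only coding changes are C57A and T786C.

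The largest difference among the 12 highest was at Rps26-ps1, a copy of a small-subunit gene whose protein lies near the messenger RNA exit channel of the ribosome. The locus, 449 bases at chr8:107439131-107439579, is inside an intron of Wwp2, a ubiquitin ligase gene on the opposite strand. It had 4426 and 3830 counts in the libraries labelled Rif1_KO, against 53 and 110 in those labelled WT. That was 333 and 203 CPM against 4.88 and 11.8 CPM, so both libraries labelled Rif1_KO were far above both labelled WT. The mean was 268 ± 92.4 CPM for Rif1_KO and 8.35 ± 4.91 CPM for WT (SD, n = 2 each), a ratio of 32.1. The log2 fold change was 5.01 (SE 0.62, adjusted p 0.275 by edgeR's quasi-likelihood test).

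The parent Rps26 had 8220 and 9102 counts in the libraries labelled Rif1_KO, against 9004 and 6531 in those labelled WT, with a log2 fold change of -0.48. The pseudogene was therefore at 53.8% and 42.1% of its parent against 0.589% and 1.68%. Wwp2, around it, had 10 and 211 counts against 46 and 13. Of the pseudogenes that share windows with Rps26-ps1, Gm7392 had 239 and 143 counts against 76 and 97, and Gm6654 had 78 and 117 against 1 and 32. Both were chosen after their values were seen. By CPM, Gm6654 was higher in both libraries labelled Rif1_KO, and Gm7392 overlapped between the groups. Rps26-ps1 shares 239 of its 400 windows with Rps26, and its coding changes are C30T and G270A, both at the third base of a codon.

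Rpsa-ps10 differed in the opposite direction. Its parent Rpsa encodes a small-subunit protein also known as the laminin receptor. The pseudogene, a single exon of 885 bases between genes at chr3:150072658-150073542, had 216 and 193 counts in the libraries labelled Rif1_KO, against 1208 and 1147 in those labelled WT. That was 16.3 and 10.2 CPM against 111 and 123 CPM, and the mean was 13.2 ± 4.28 CPM for Rif1_KO and 117 ± 8.49 CPM for WT (SD, n = 2 each). The ratio was 0.113 and the log2 fold change -3.15 (SE 0.58, adjusted p 0.571 by edgeR's quasi-likelihood test).

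Rpsa had 6283 and 7708 counts in the libraries labelled Rif1_KO, against 3486 and 2668 in those labelled WT, with a log2 fold change of 0.54. Rpsa-ps10 was thus at 3.44% and 2.50% of its parent against 34.7% and 43.0%. Other Rpsa copies, named after their values were seen, did not show a difference of that size. Rpsa-ps2, which shares 434 of the 836 windows of Rpsa-ps10, had 52 and 56 counts against 21 and 20, and Rpsa-ps9 had 17 and 14 against 19 and 16. The coding changes of Rpsa-ps10 are C25A, T210C, C219T, C345G, C696T and G858A, of which C25A alone is not at the third base of a codon. The erythroid marker sum moved in the same direction as Rpsa-ps10 and the stromal sum in that of Rps26-ps1, and their part in either was not tested.

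**Figure D2:**
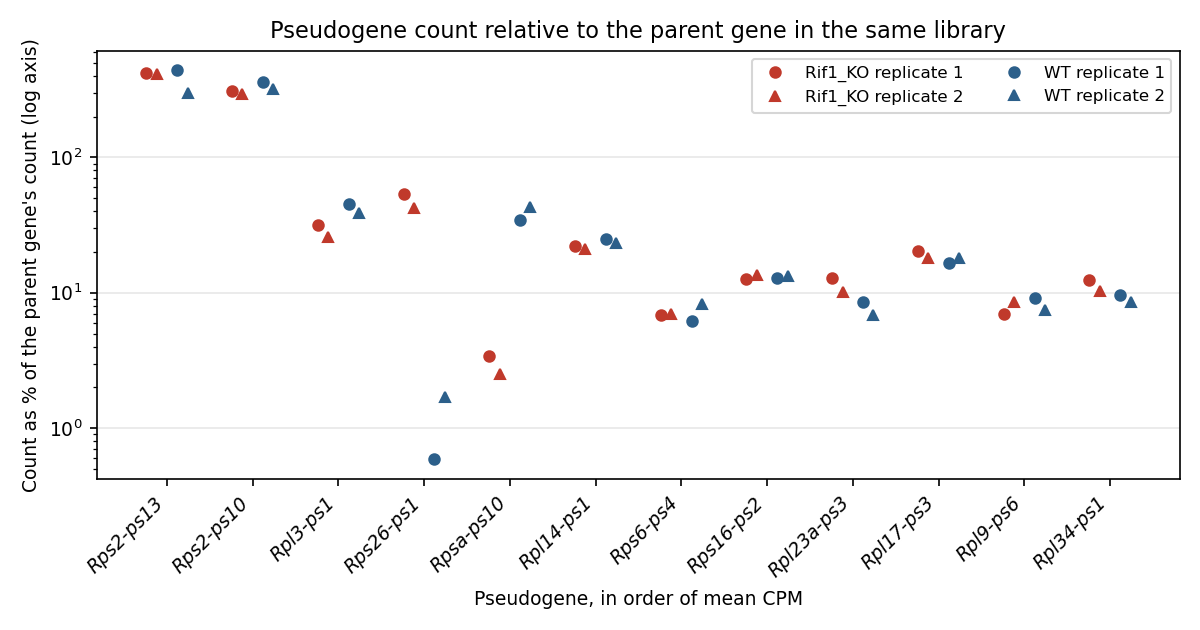
Count of each of the 12 highest pseudogenes as a percentage of its parent gene's count in the same library, on a log axis, for the 2 libraries labelled Rif1_KO and the 2 labelled WT. Rps2-ps13 and Rps2-ps10 lie above 100% in every library, and Rps26-ps1 and Rpsa-ps10 are the members whose groups stand farthest apart.

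The other 7 of the 12 stood near each other in both groups. Rpl14-ps1, which lies in an intron of Trpm4, had 59.8 and 52.2 CPM in the libraries labelled Rif1_KO, against 81.3 and 66.8 CPM in those labelled WT. Rpl14 encodes a large-subunit protein, and its copy was at 22.0% and 21.2% of it against 24.8% and 23.2%. Its CPM values and percentages were lower in both libraries labelled Rif1_KO. Rps16-ps2, the exact copy shown above, had 46.9 and 46.1 CPM against 50.5 and 51.5 CPM, without overlap, and a log2 fold change of -0.13 (SE 0.58). It was at 12.7% and 13.4% of Rps16 against 12.9% and 13.4%, so the percentages overlapped. Rps6-ps4, the other exact copy among the 12, had 72.6 and 49.3 CPM against 49.6 and 55.3 CPM, or 6.80% and 7.02% of Rps6 against 6.23% and 8.28%.

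Copies of large-subunit genes made up the rest. Rpl23a-ps3 had 70 and 35.7 CPM in the libraries labelled Rif1_KO, against 38.8 and 35.3 CPM in those labelled WT. Rpl17-ps3 had 56.9 and 37.9 CPM against 40.9 and 35.9 CPM. Rpl9-ps6 had 50.6 and 32.3 CPM against 47.2 and 25.9 CPM. Rpl34-ps1 had 47.2 and 31.9 CPM against 37.7 and 32.8 CPM. In each of these 4 and in Rps6-ps4 the groups overlapped.

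Levels were higher the closer the copy was to its parent. The 58 pseudogenes at 99% identity or more held 88.7% and 89.2% of all pseudogene counts in the libraries labelled Rif1_KO, against 88.6% and 87.7% in those labelled WT. Of these, 46 had at least 10 counts in every library and 0 were at 0 throughout. The other 239 included all 45 that had no count. These identity classes were chosen after the values were seen and are a description.

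By finer steps, all 14 that were identical to the parent over the whole alignment had at least 10 counts in each library. So did 32 of 44 at 99% to under 100%, 16 of 40 at 98% to under 99%, and 5 of 68 at 95% to under 98%. From 90% to under 95% it was 1 of 66, Rpl27-ps2, and under 90% it was 1 of 59, Rpl36a-ps3. Rpl27-ps2 had 60 and 84 counts in the libraries labelled Rif1_KO, against 55 and 140 in those labelled WT. Rpl36a-ps3, the copy that resembles Rpl36al, had 35 and 28 against 20 and 18. Both were named after their values were seen.

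**Figure D3:**
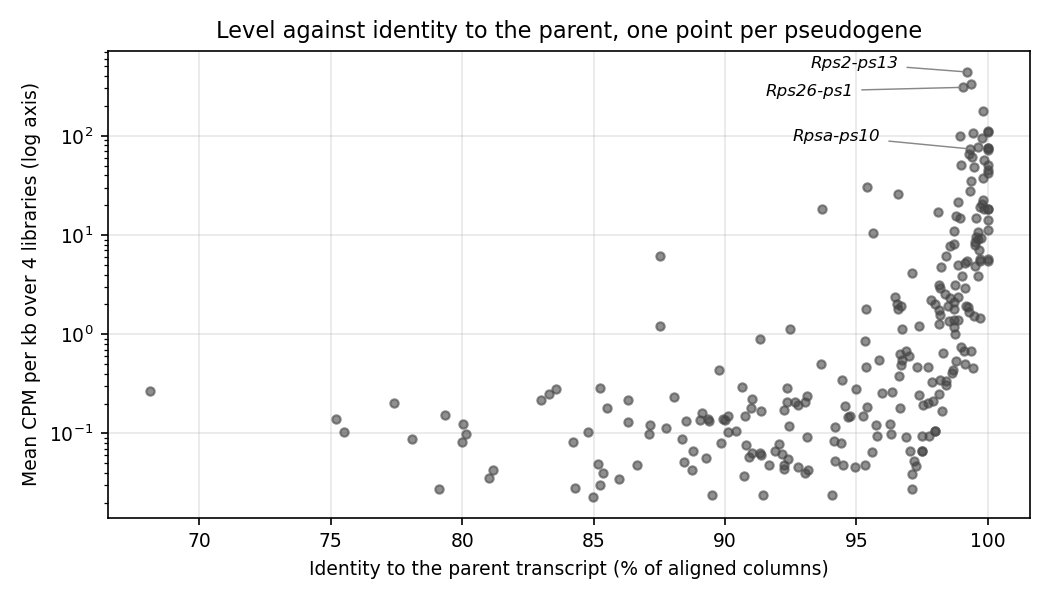
Mean level over the 4 libraries in CPM per kilobase of exon (log axis) against identity to the parent transcript, 1 point for each pseudogene with an alignment and at least 1 count. Levels above 100 CPM per kb occur at the right edge, as for Rps2-ps13, Rps26-ps1 and Rps16-ps2, whereas most points under 95% identity lie below 1 CPM per kb; pseudogenes at 0 cannot be drawn on a log axis.

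**Figure D4:**
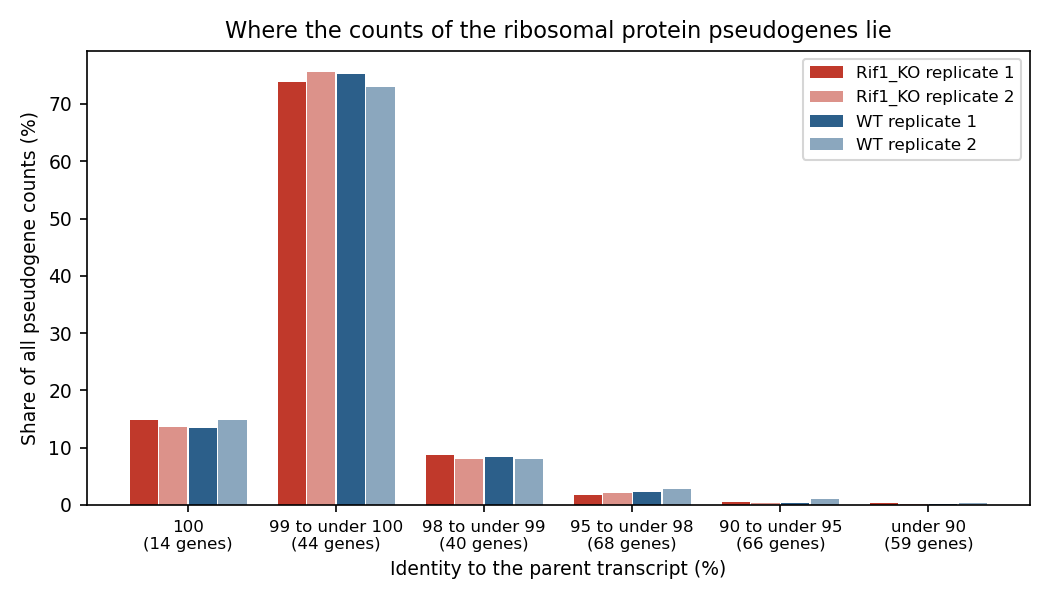
Share of all pseudogene counts in each library (bars from 0, in %) by class of identity to the parent, with the number of genes in each class. The class from 99% to under 100% holds between 72.9% and 75.5% of the counts in each of the 4 libraries.

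Across the 291 aligned pseudogenes, Spearman's rho between identity and mean CPM per kilobase was 0.70, and between the percentage of shared windows and that level 0.61. For exon length it was 0.18, and for the parent's own level per kilobase 0.02. These points share libraries and, through shared windows, reads, so the values are descriptive. The 32 pseudogenes with no window in another gene held 0.0311% and 0.0214% of the counts against 0.0425% and 0.122%, and 0 of them had at least 10 counts in each library. At the other end, 33 had every window in some other gene, and 19 of those had at least 10 counts in each library. A count of such a locus is uncertain, since reads inside it cannot be told by sequence from those of the other gene.

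Reading frame went with level as well. The 108 copies with an open frame held 76.5% and 78.7% of pseudogene counts in the libraries labelled Rif1_KO, against 70.2% and 71.2% in those labelled WT. The 57 interrupted copies held 2.26% and 1.58% against 2.56% and 2.56%. Of the 32 coding substitutions in the 12 highest pseudogenes, 27 (84.4%) were at the third base of a codon, against 55.1% of 1017 in open copies and 45.3% of 1677 in interrupted ones. In the 44 copies at 99% to under 100% identity it was 69.4% of 108. The 5 changes that Rps2-ps13 and Rps2-ps10 have in common are counted once for each of them.

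Large families were carried by 1 or a few near-identical copies, named here after their values were seen. Rps12, a small-subunit gene, has 24 pseudogenes, the most of any parent, of which 9 were at 0 and 3 had at least 10 counts in each library. Rps12-ps3, an exact copy, had 109 and 78 counts in the libraries labelled Rif1_KO, against 59 and 41 in those labelled WT, of 221 and 141 against 164 and 116 for the family. Rpl31, a large-subunit gene, has 23, and Rpl31-ps8, also an exact copy, had 511 and 359 of 593 and 385 counts, against 306 and 251 of 328 and 270.

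Rpl21 has 15 pseudogenes, and Rpl21-ps15 had 486 and 712 counts in the libraries labelled Rif1_KO, against 214 and 222 in those labelled WT. At 36.6 and 37.7 CPM against 19.7 and 23.9 CPM it was higher in both libraries labelled Rif1_KO. The parent Rpl21 had 3261 and 4143 counts against 1598 and 1466, with a log2 fold change of 0.61, and the family's share of family and parent counts was 15.6% and 16.7% against 13.7% and 16.6%. Rps19 has 14, led by Rps19-ps6 with 204 and 151 counts against 74 and 70.

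Rpl23a also has 14, and Rpl23a-ps3 had 929 and 674 of the family's 946 and 676 counts, against 421 and 328 of 426 and 333. Rpl7a has 12, led by Rpl7a-ps5 with 240 and 207 counts against 161 and 109. As a share of family and parent counts, Rpl23a pseudogenes held 11.5% and 9.15% in the libraries labelled Rif1_KO, against 7.91% and 6.46% in those labelled WT, without overlap. Those of Rpl7a held 9.67% and 7.06% against 8.20% and 6.96%, with overlap. Those of Rps12 held 9.17% and 6.94% against 8.54% and 12%, those of Rpl31 10.4% and 6.62% against 7.32% and 8.93%, and those of Rps19 2.25% and 1.25% against 0.921% and 1.29%, all with overlap.

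Of the 297 pseudogenes, 91 had counts high enough to enter the fit of Rif1_KO against WT over 15466 genes. By edgeR's quasi-likelihood test 0 of the 91 were called, where 2 of the 15466 genes were (0.0129%). At an unadjusted p under 0.05, 3 were higher and 2 lower in the libraries labelled Rif1_KO, beside 5.35% and 3.05% of all genes tested, or 8.41% in either direction. DESeq2 called 2, Rps26-ps1 as higher and Rpsa-ps10 as lower, beside 3.37% of all genes in either direction. Since the pseudogenes were chosen with this contrast in view, nothing is read from these counts.

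Both libraries labelled Rif1_KO were above both labelled WT for 15 of the 91, beside 21% of all genes tested, and below them for 17, beside 18.4%. For 59 the groups overlapped. The parents gave 3 above, 19 below and 39 overlapping, with 0 of 61 called by edgeR, 0 by DESeq2, and 0 with an edgeR p under 0.05 before adjustment.

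The median log2 fold change was 0.12 over the 91 pseudogenes, -0.05 over the 61 parents and -0.11 over all 15466 genes. With DESeq2's size factors these medians were 0.04, -0.13 and -0.19, and with upper-quartile factors 0.41, 0.23 and 0.16. The signs for the parents and for all genes thus depend on the scaling.

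**Figure D5:**
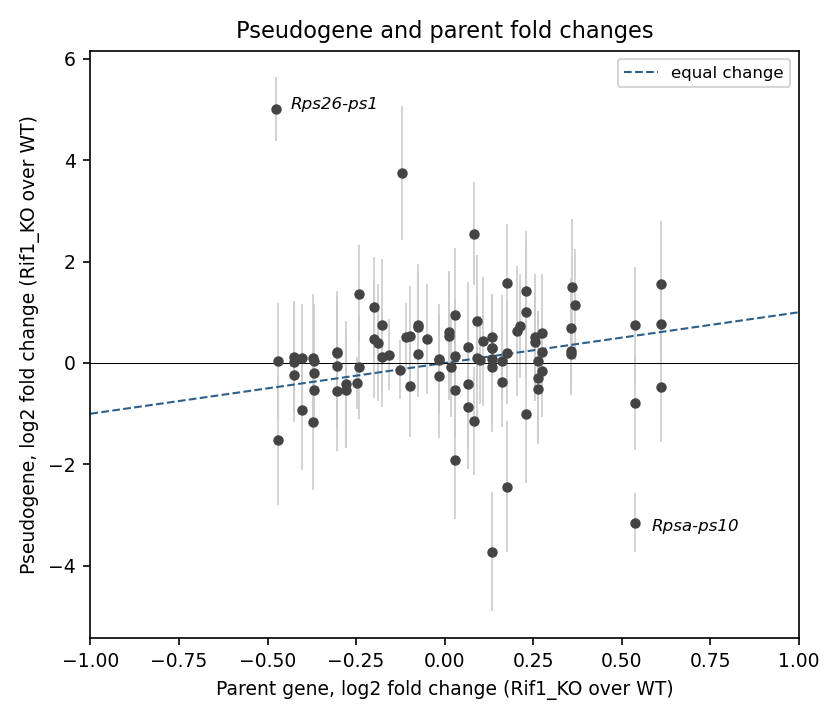
Fitted log2 fold change, Rif1_KO over WT, of each of the 91 pseudogenes tested (vertical, bars are 1 SE) against that of its parent (horizontal), with a dashed line of equal change. Rps26-ps1 at 5.01 and Rpsa-ps10 at -3.15 lie far from the line on opposite sides, and parents stay within a narrow range. For Rps26-ps1 and Rpsa-ps10 the adjusted p by edgeR's quasi-likelihood test was 0.275 and 0.571.

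The fold change of each pseudogene tested was set beside that of its parent. Parents varied little, so being close to the parent is nearly the same as having a small fold change. Whether pseudogenes follow their parents was not tested. The pseudogene's log2 fold change minus the parent's had a median of 0.18 over the 91 pairs, with quartiles of -0.23 and 0.52. It was within 1 of the parent's in either direction for 74 pairs and within 2 for 85. It was above 2 for 3, Rps26-ps1, Rpl29-ps2 and Rpl5-ps2, and below -2 for 3, Rpsa-ps10, Rpl17-ps4 and Rpl30-ps3.

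The pseudogenes with the smallest p-values beyond the 12 highest had low counts. Rpl5-ps2 had 27 and 19 counts in the libraries labelled Rif1_KO, against 2 and 3 in those labelled WT. Rpl29-ps2, a locus of 3 exon blocks, had 21 and 27 against 0 and 2, and Rpl28-ps3 had 19 and 13 against 3 and 5. Lower in the libraries labelled Rif1_KO were Rpl17-ps4, with 3 and 3 counts against 44 and 11, and Rpl30-ps3, with 1 and 15 against 38 and 13. Rpl7a-ps7 had 2 and 19 against 31 and 15. By raw counts Rpl30-ps3 and Rpl7a-ps7 overlap between the groups, and by CPM they do not, since the library scaling differs. Such values moved when 1 library was left out. The log2 fold change of Rpl30-ps3 was -2.44 with all 4 libraries, -1.55 without Rif1_KO replicate 1, -4.80 without Rif1_KO replicate 2 and -1.60 without WT replicate 1. That of Rpl17-ps4 was -3.72, and -2.53 without WT replicate 1. That of Rpl29-ps2 was 3.76, and 2.80 without WT replicate 1. It was 7.44 without WT replicate 2, where the WT library left has 0 counts and the value is no bound. All copy large-subunit genes.

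The longest and shortest loci differed in counts. Rpl19-ps3, the longest at 2871 bases over 4 exon blocks, had 23 and 0 counts in the libraries labelled Rif1_KO, against 1 and 7 in those labelled WT. Rps7-ps2, at 1347 bases, had 3 and 1 against 3 and 1. Its windows are shared most with Odc1, an enzyme of polyamine synthesis, at 236 of 1298, and 0 are shared with Rps7. Rpl39-ps, the shortest at 151 bases, had 94 and 50 against 33 and 39.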

How the data were processed

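The table deposited by the authors holds whole-number counts for each gene in 4 libraries, not normalized. Per the file headers, featureCounts 1.6.2 made them on GENCODE M17, counting read pairs of mapping quality 30 or more, with the options for reads of several alignments and several genes set and no strand option. Reads had been processed with HISAT2, Trim Galore, SAMtools and FastQC on mm10, per the submitters' processing notes. The limit on mapping quality and these options affect near-identical copies, antisense partners and overlapping genes, whose counts are uncertain. Symbols were matched by gene ID, and 95 IDs had none.

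The genotype label gave the groups, and the titles gave the replicate numbers. The libraries of a pair differed by more than sampling noise (chi-square per degree of freedom 86.6 for Rif1_KO and 107 for WT). Genes were kept with filterByExpr (minimum count 10) and fitted with edgeR 4.0.16 in R 4.3.3 by the quasi-likelihood test, with TMM factors of 1.107 and 1.319 for Rif1_KO and 0.856 and 0.800 for WT and Benjamini-Hochberg adjustment at 0.05. SE was obtained as log2 fold change over the root of F. For each of the 12 highest pseudogenes DESeq2 gave a larger SE, such as 0.91 against 0.62 for Rps26-ps1 and 0.80 against 0.29 for Rps2-ps10. Levels per kilobase use the table's exon length, summed over all annotated transcripts of a gene. The alternatives were DESeq2 1.42.0, RLE and upper-quartile factors, no filter, a replicate block and leaving out each library. The fits were tested on simulated data with a much smaller spread between libraries than these, whose common dispersion in edgeR was 0.709. That test therefore does not show how the fits perform at the spread seen here.

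Each pseudogene transcript was aligned locally on its annotated strand to the parent's best-scoring coding transcript (Biopython 1.88, match 2, mismatch -3, gap opening -5, extension -2), and matches under 50 columns were not used. The pseudogenes, marker lists and classes were chosen with earlier results of these data known. Named were the 12 with the highest mean CPM, 3 more in each direction by smallest p, the 2 longest and 2 shortest, their parents, and the 6 families with most members. The genes around a named pseudogene were also named. Of the genes this rule takes, 1 is not reported here.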

Additional observations from a re-analysis of the deposited data

How the results depend on the processing

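Genes called over the whole table numbered 2, against 0 with upper-quartile factors, 54 with no filter (45215 genes tested), 521 with DESeq2 and between 5 and 1345 with 1 library left out. Pseudogenes called numbered 0, against 1 with no filter (Rps26-ps1), 2 with DESeq2 and between 0 and 2 with 1 library left out. Rps26-ps1 and Rpsa-ps10 were both called without WT replicate 1 and without WT replicate 2, and the WT library left is then assumed to vary like the Rif1_KO pair. Over all genes, 1345 were called without WT replicate 1 and 890 without WT replicate 2, while 8 were called when Rif1_KO replicate 1 was left out and 5 when Rif1_KO replicate 2 was. The groups share only replicate numbers: the within-group differences between replicates 1 and 2 had a correlation of -0.02 across 15466 genes, and with a replicate block 7 genes and 0 pseudogenes were called. As log2 ratios of group means, Rif1_KO over WT, the pseudogene sum was 0.02 and the parent sum -0.02. Scaled to the total as deposited these ratios were 0.54 and 0.51, and the groups did not overlap. With TMM scaling and 1 library left out the ratios ran from -0.25 to 0.24 and from -0.24 to 0.17. The share ratio was 0.03, against 0.22 per kilobase and -0.0877 without Rps26-ps1 and Rpsa-ps10 and the parent Rps26, -0.0781 without the 2 pseudogenes only, 0.0459 per kilobase without them, and from -0.01 to 0.07 with 1 library left out. The difference in pseudogenes detected was 3.5, and from -7 to 14 with 1 library left out. Of 171 alternatives for the fold changes of 19 named pseudogenes, 11 reversed an uncalled value. Rps2-ps13 was 0.0891 with upper-quartile factors and 0.0944 with no filter, and Rps16-ps2 0.14 and 0.17. With 1 library left out, log2 fold changes ran from -0.36 to 0.0639 for Rps2-ps13, -0.65 to 0.0179 for Rpl3-ps1, -0.0056 to 0.52 for Rps6-ps4, -0.18 to 0.73 for Rpl9-ps6, -0.065 to 0.47 for Rpl34-ps1 and -0.36 to 1.03 for Rpl39-ps. They ran from 4.55 to 5.79 for Rps26-ps1 and from -3.44 to -2.79 for Rpsa-ps10. The cause of these changes was not tested, other than that no filter tests more genes.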
